A study of Mus musculus with 6 samples.

Results

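Promoters with an ATAC-seq peak in Pax6-ON cells and in neither of the other lines numbered 282 of the 34742 intervals in the series. They were found by merging the deposited peaks of 3 mouse cell lines on chromosomes 1 to 19 wherever peaks shared at least 1 bp. An interval was kept when it held Pax6-ON peaks only and a protein-coding transcript started within 1 kb of it in mm9. Each of the 282 held 1 peak, and together they lay at 278 genes, of 21410 protein-coding genes on these chromosomes. Of all intervals 9.06% held Pax6-ON peaks only, of the 10533 intervals at a promoter 2.68% did, and 1.30% of all protein-coding genes had such a promoter. The members were chosen by these peak calls, so their strength, their calls and the counts of their genes are descriptions and were not tested.

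Pax6-ON cells (MV+) are a line from cultured lens epithelia of a wildtype C57BL6 mouse. Pax6-HIGH cells (β-TC3) are a mouse insulinoma line, for which the paper names no strain, and Pax6-OFF cells (RAG) are a renal adenocarcinoma line from BALB/c. Strain therefore cannot be told apart from the line. Each is a single established line, with no treatment named in the labels, and was assayed in 2 replicates that the authors pooled in 1 peak call, so every value has no replicate error. Nuclei of Pax6-ON cells were released in a buffer with more NP40 detergent than those of the other lines, a step that cannot be told apart from the line. The Pax6-ON call used 130955836 fragments and gave 9821 peaks, the Pax6-HIGH call used 100254099 and gave 28024, and the Pax6-OFF call used 102223606 and gave 14022. Promoters are the DNA around the sites where transcription starts. Most promoters of widely used genes lie in CpG islands and are accessible in nearly every cell, whereas promoters of genes used in few cell types more often open together with nearby enhancers. In ATAC-seq the Tn5 transposase cuts accessible DNA, so that fragments pile up at open promoters and enhancers.

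A missing peak means only that the call did not pass in that line. Scaled to the depth of either other line, 5 of the 282 members would have had fewer fragments at their summit than the lowest called pileup there, 25. The lens origin of the line was checked at the promoters of 12 lens epithelial markers. Peaks were called in Pax6-ON cells at 3 of them, Pax6 with a fold enrichment of 4.94, Prox1 with 2.31 and Maf with 2.83. None was called at Foxe3, Six3, Sox2, Pitx3, Cdh1, Cdh2, Epha2 or the crystallin genes Cryaa and Cryab. The 3 called promoters also had a peak in Pax6-HIGH cells, where 4 of the 12 were called, and 2 were called in Pax6-OFF cells. No lens marker was therefore among the 282, and the calls do not by themselves mark the line as lens. The check was also incomplete in the other lines. In Pax6-HIGH cells 4 of 7 beta cell markers were called, without Ins1, Ins2 or Pdx1, and in Pax6-OFF cells 2 of 6 kidney markers. A missing marker call therefore says little about the origin of a line. Of the 38 markers of other cell types, 5 had a Pax6-ON peak. Twist1, 1 of 8 mesenchymal markers, and Kdr, 1 of 4 endothelial markers, were members, and the others of both lists had no Pax6-ON peak. The beta cell markers Nkx6-1 and Mafa and the pigment cell marker Mitf were called in Pax6-ON cells and in at least 1 other line. The intervals are described below by the line that held the peak.

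The strongest members show the range of sequences in the group. The DNA below includes the Pax6-ON summit of 8 of the strongest members whose interval holds a start site and is cut so that at most 30 bases belong to an untranslated region. The Sema3d and Itgb8 windows are not shown because this cut left too little of the first and removed the summit of the second. Each is from NCBIM37 (the same assembly as mm9), 5′ to 3′ on the strand of the gene. Capitals mark, on either strand, matches to the AP-1 letters TGANTCA, to the GC box letters GGGCGG and to the CCAAT box.
Ifi203, chr1:175872812-175873012, minus strand: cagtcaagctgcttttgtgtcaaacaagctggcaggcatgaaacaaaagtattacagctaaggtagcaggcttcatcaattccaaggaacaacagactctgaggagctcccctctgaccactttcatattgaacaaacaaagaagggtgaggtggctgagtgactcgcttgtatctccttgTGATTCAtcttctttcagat
Fry, chr5:150921072-150921271, plus strand: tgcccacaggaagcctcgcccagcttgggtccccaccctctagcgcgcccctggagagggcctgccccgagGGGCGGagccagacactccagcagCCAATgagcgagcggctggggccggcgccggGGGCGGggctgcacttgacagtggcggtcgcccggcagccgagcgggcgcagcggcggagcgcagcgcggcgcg
Nrxn3, chr12:91050630-91050830, plus strand: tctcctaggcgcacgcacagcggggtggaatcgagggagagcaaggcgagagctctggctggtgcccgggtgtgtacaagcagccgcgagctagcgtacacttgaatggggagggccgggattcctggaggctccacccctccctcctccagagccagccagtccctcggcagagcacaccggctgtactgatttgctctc
Zfp820, chr17:21982697-21982825, minus strand: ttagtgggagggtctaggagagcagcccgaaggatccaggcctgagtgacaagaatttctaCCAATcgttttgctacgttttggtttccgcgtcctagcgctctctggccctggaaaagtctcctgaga
Mei4, chr9:81757192-81757306, plus strand: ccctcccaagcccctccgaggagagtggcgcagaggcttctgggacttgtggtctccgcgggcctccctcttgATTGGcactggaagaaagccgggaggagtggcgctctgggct
Map2k6, chr11:110260283-110260465, plus strand: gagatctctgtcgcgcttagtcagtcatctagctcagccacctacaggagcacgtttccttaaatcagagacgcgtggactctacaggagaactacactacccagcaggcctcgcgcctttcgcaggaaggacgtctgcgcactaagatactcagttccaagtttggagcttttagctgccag
Ifi205, chr1:175961954-175962154, minus strand: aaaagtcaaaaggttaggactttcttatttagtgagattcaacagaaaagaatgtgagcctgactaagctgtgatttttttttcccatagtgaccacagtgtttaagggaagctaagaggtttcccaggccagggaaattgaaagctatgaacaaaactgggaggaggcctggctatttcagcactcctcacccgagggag
Kcna4, chr2:107130671-107130825, plus strand: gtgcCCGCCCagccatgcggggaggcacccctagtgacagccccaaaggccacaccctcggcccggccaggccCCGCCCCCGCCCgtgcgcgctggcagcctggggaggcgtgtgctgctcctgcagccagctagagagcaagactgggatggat
As printed, the Fry and Kcna4 windows hold GC boxes, and those of Fry, Zfp820 and Mei4 each hold a CCAAT box. The Ifi203 window is poor in G and C and holds an AP-1 match, while the Nrxn3, Map2k6 and Ifi205 windows hold none of the marked letters.

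Fold enrichment is the fragments at the summit over a background set by the peak caller. For many members this background was the same: Egfr and Rhoj, each with 52 fragments, both had 3.49. There the value only rescales the fragment count. The strongest member had a fold enrichment of 12.9. It lay at chr1:175872570-175873094 at the starts of Ifi203 and Mndal, interferon-inducible genes of the Ifi200 family, and had 209 fragments at its summit. Fry, a large scaffold protein of cell shape, followed with 10.4 and 228 fragments at chr5:150921057-150921562. Rab27b, a GTPase of vesicle transport, had a fold enrichment of 10.3. Nrxn3, a presynaptic adhesion protein, had 9.38 at chr12:91050367-91051154. These members thus span an innate immune locus, a cytoskeletal scaffold, a vesicle GTPase and a synaptic gene.

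Members of lower fold enrichment also held genes of mixed roles. Zfp820, a zinc finger gene, had a fold enrichment of 8.96, Mei4, which acts in meiotic recombination, 8.70, and Plcl1, a phospholipase C-like protein, 8.63. Map2k6, a kinase that activates p38, had 8.30. Itgb8, an integrin subunit that helps release active TGF-β, had 8.26 over a broad peak of 1148 bp. Ifi205, a further Ifi200 gene, had 8.24. Sema3d, a secreted guidance protein, had 8.04, the potassium channel gene Kcna4 7.97, and Chsy3, which builds chondroitin sulfate chains, 7.78. Hey2, a repressor downstream of Notch, had 7.71, as did the interval near the olfactory receptor gene Olfr102. The remaining 9 of the 25 strongest members ran from 7.49 at Sorcs1 to 6.79 at Nt5e, through Abca5, P2ry1, Lrrc4c, Gm12824, Mctp1, Hs3st5 and Gpc5.

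**Figure D1:**
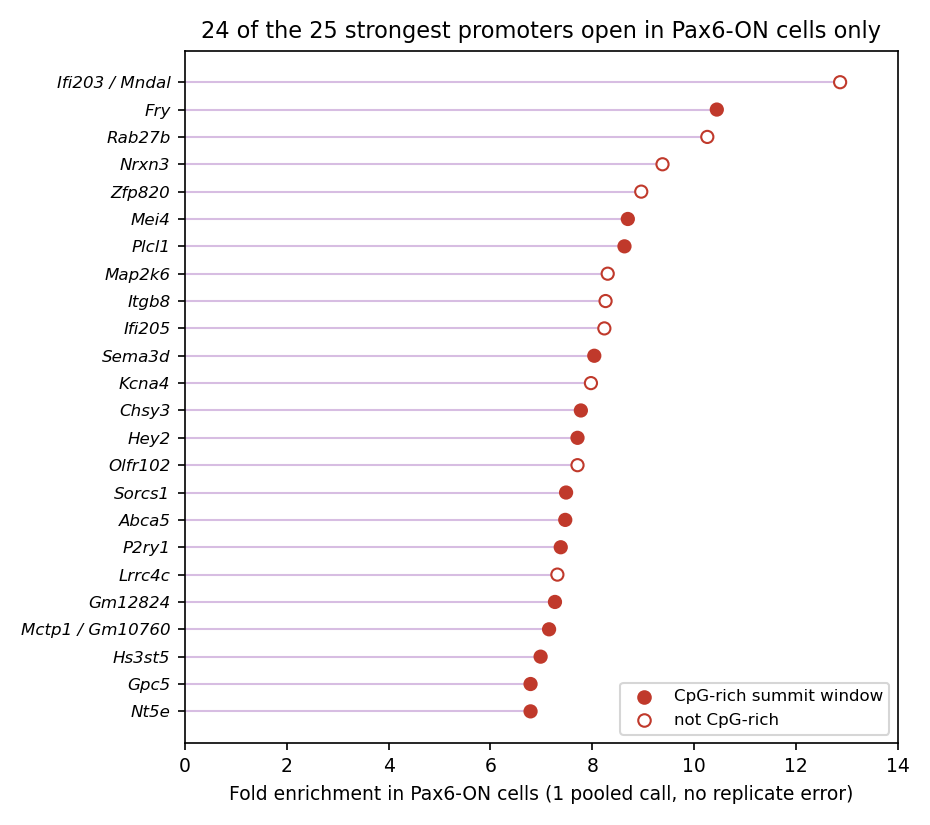
Fold enrichment in Pax6-ON cells (x axis, from 0) of 24 of the 25 strongest promoters open in that line only. Each point is 1 interval from 1 pooled call without replicate error, filled where the DNA around the summit is CpG-rich. Values fall from 12.9 at Ifi203 and Mndal to 6.79 at Nt5e.

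Across all 282 members the median fold enrichment was 3.49, with a 95% interval of the median of 3.29 to 3.69, and the range was 1.67 to 12.9. The 3893 promoters that Pax6-ON cells shared with at least 1 other line had a median of 4.35 (4.22 to 4.41). Promoters open in 1 other line only, each in its own call, had medians on either side of the members'. These were 3.67 (3.60 to 3.74) for Pax6-HIGH and 3.32 (3.28 to 3.40) for Pax6-OFF. A fold enrichment of at least 5 was reached by 58 members, 20.6%, and by 38.4% of the shared promoters. The median summit had 54 fragments in members and 65 in shared promoters, and the median peak was 381.5 bp long against 461 bp. The weakest members by significance, near Fbn1 and Frk, had 31 fragments and a −log10 q-value of 1.73. These intervals cover counting error over peaks only, and peaks are not replicates.

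**Figure D2:**
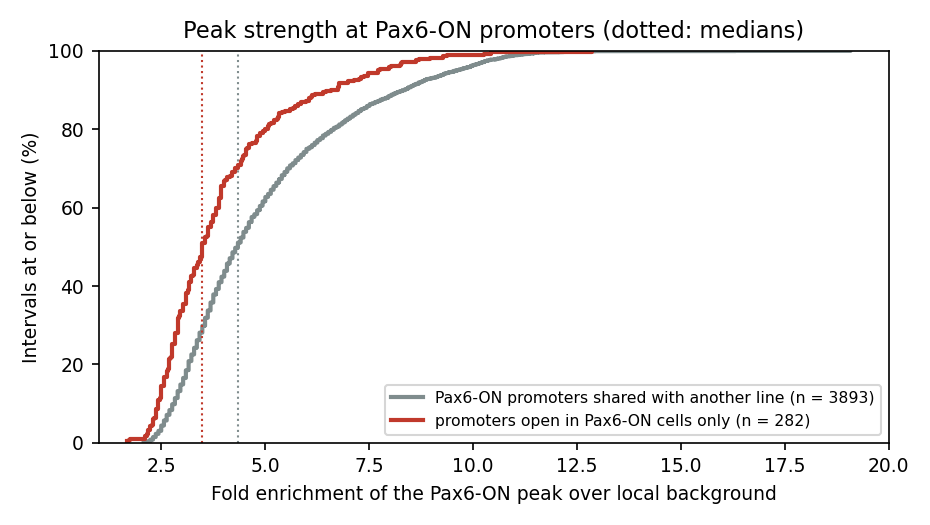
Cumulative share of intervals (y axis, %) at or below a fold enrichment (x axis) for the 282 promoters open in Pax6-ON cells only and the 3893 that Pax6-ON cells shared with another line. The red curve lies to the left of the grey one, with medians (dotted) of 3.49 and 4.35.

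Members sat less tightly on start sites than shared promoters did. The interval held a start in 171 of 282 members, 60.6% (Wilson 95% interval 54.8 to 66.2%), and in 96.2% (95.6 to 96.8%) of shared promoters. For promoters open in 1 other line only, the values were 76.6% (Pax6-HIGH) and 70.2% (Pax6-OFF). The summit lay within 200 bp of the nearest start in 60.3% of members and 81.2% of shared promoters. It did so in 68.5% of Pax6-HIGH-only and 71.1% of Pax6-OFF-only promoters. The summit lay over 500 bp away in 68 members, 24.1%, against 4.85% of shared, 15.3% of Pax6-HIGH-only and 15.5% of Pax6-OFF-only promoters. The distance limit was part of the rule, and the members nearest to it were Dhrs3 (969 bp from a start, fold enrichment 5.01), Gm17293 (964 bp, 3.14) and Crct1 (942 bp, 2.57). Just outside it were intervals near Elavl2 (1019 bp, 3.10), Olfr305 (1027 bp, 3.36) and Odz4 (1031 bp, 2.57), and in all 57 Pax6-ON-only intervals lay between 1 and 2 kb from a start.

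**Figure D3:**
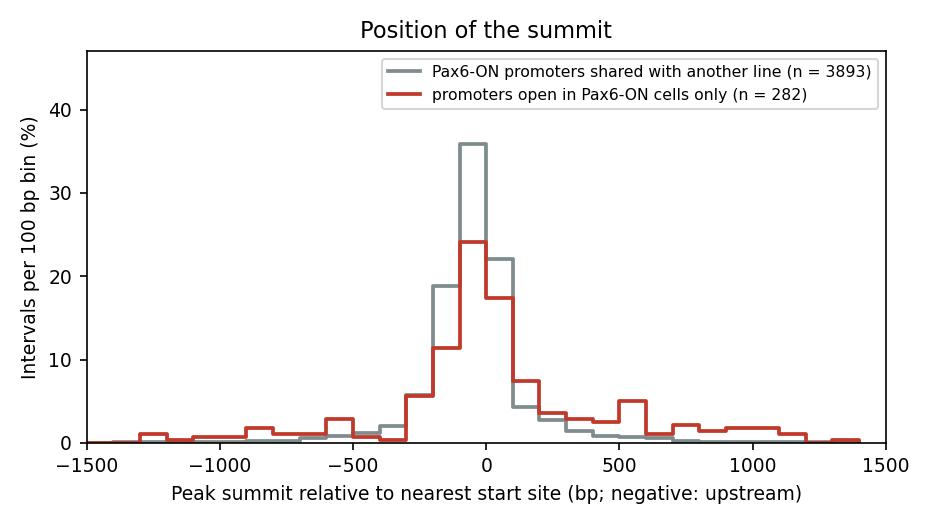
Distance of the Pax6-ON summit from the nearest protein-coding start (x axis, bp, negative upstream) as the share of intervals in each 100 bp bin (y axis, %). Both groups peak at the start, and 24.1% of the 282 members against 4.85% of the 3893 shared promoters have a summit over 500 bp away.

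The DNA at the summit, which the rule did not use, was mixed in composition. The DNA up to 250 bp on either side of it was called CpG-rich with at least 50% G and C and an observed to expected CpG ratio of at least 0.6. This held for 152 members, 53.9% (48.1 to 59.6%), and for 88.0% (87.0 to 89.0%) of promoters shared with another line. It also held for 63.4% (61.6 to 65.2%) of promoters open in Pax6-HIGH cells only, 65.8% (62.1 to 69.3%) of those open in Pax6-OFF cells only and 1.43% of distal intervals open in Pax6-ON cells only. The median content of G and C was 61.7% in members, 64.9% in shared promoters and 44.1% in the 2865 distal intervals. The 95% interval of the members' CpG-rich share lay below those of the other promoter groups without overlap. This separation depended on the rule. With the start inside the interval in every group, the share was 66.1% (58.7 to 72.8%) in members, 70.3% (68.3 to 72.3%) in Pax6-HIGH-only and 76.0% (71.9 to 79.7%) in Pax6-OFF-only promoters, which overlap, and 88.7% (87.6 to 89.6%) in shared ones. The members' share was 63.7% with equal peak numbers and 79.2% with a shared call requiring 50% overlap, for which the other groups were not recomputed.

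The AP-1 letters TGANTCA, read by the Fos and Jun factors, were found up to 100 bp from the summit in 40 members, 14.2% (10.6 to 18.7%). The share was 3.42% (2.89 to 4.03%) in promoters shared with another line, 4.61% (3.87 to 5.47%) in promoters open in Pax6-HIGH cells only and 7.42% (5.66 to 9.68%) in those open in Pax6-OFF cells only. In distal intervals open in Pax6-ON cells only it was 52.8% (51.0 to 54.6%). The members' share fell to 6.45% with a shared call requiring 50% overlap and to 8.51% within 50 bp of the summit, and the other groups were not recomputed for these. With the start inside the interval it was 9.94% (6.30 to 15.3%) in members, 2.96% (2.47 to 3.56%) in shared, 3.47% (2.76 to 4.36%) in Pax6-HIGH-only and 4.32% (2.81 to 6.58%) in Pax6-OFF-only promoters, and the intervals of the first and the last overlap.

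The AP-1 match was uneven among members: 34 of the 130 members that were not CpG-rich held it, 26.2% (19.4 to 34.3%), against 6 of the 152 that were, 3.95% (1.82 to 8.34%). Among promoters that were not CpG-rich the share was 10.1% (7.67 to 13.2%) in shared, 8.70% (7.09 to 10.6%) in Pax6-HIGH-only and 15.9% (11.7 to 21.3%) in Pax6-OFF-only ones, and the interval of the last overlaps that of the members. Among CpG-rich promoters the shared ones had 2.51% (2.04 to 3.09%), which overlaps the members' interval. Members whose interval held no start had the match in 20.7% (14.2 to 29.2%), and such shared promoters in 14.9% (10.0 to 21.5%), which also overlap. The 6 CpG-rich members with the match were Vash2, Arap2, Tgfbr2, Prkcdbp, Nebl and 9430076C15Rik. A match is a string of letters and was not shown to be a bound site.

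The GC box, CCAAT box, ETS and NRF1 letters were less frequent in members than in shared promoters. The GC box (GGGCGG) was found in 44.7% (39.0 to 50.5%) of members against 68.5%, the CCAAT box in 20.9% (16.6 to 26.0%) against 38.9%, the ETS core CCGGAA in 6.38% (4.08 to 9.86%) against 22.5%, and the NRF1 letters GCGCATGC in 1 member, 0.355% (0.0626 to 1.98%), against 5.01%. The SOX letters ACAATG were found in 6.38% (4.08 to 9.86%) against 3.42% (2.89 to 4.03%) and the TATA box letters TATAAA in 3.90% (2.19 to 6.85%) against 1.36% (1.04 to 1.78%). Shares of the TEAD letters GGAATG (8.51%, 5.79 to 12.4%), the RUNX letters TGTGGT (7.80%, 5.21 to 11.5%), the STAT letters TTCNNNGAA (3.19%), the MAF letters TGCTGAC (2.84%), the CRE letters TGACGTCA (1.42%) and the E-box CACCTG (8.16%) had intervals that contained the share in shared promoters. In Pax6-HIGH-only and Pax6-OFF-only promoters the shares were 48.8% and 57.7% (GC box), 24.3% and 22.6% (CCAAT box) and 16.8% and 14.1% (ETS). They were 2.21% and 3.79% for NRF1, 4.19% and 4.70% for SOX and 2.73% and 2.88% for TATA letters. The CCAAT, SOX and TATA intervals of both groups overlap the members', as do the GC box and NRF1 intervals of Pax6-HIGH-only promoters. The ETS intervals of both groups do not. The E-box was found in 13.8% (12.5 to 15.1%) of Pax6-HIGH-only and 13.3% (11.0 to 16.1%) of Pax6-OFF-only promoters. The members' E-box interval, 5.50 to 11.9%, overlaps only that of Pax6-OFF-only promoters. All 13 motifs were searched on both strands. At distal intervals open in Pax6-ON cells only, TEAD letters were found in 22.9% and RUNX letters in 25.1%.

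**Figure D4:**
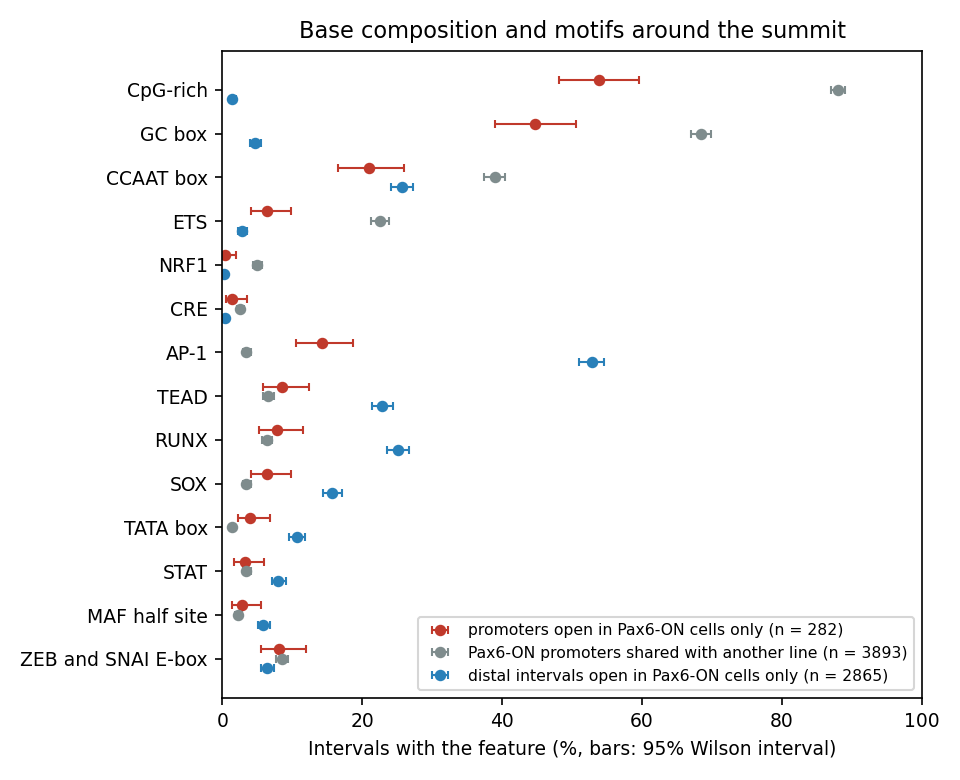
Share of intervals (x axis, %, with 95% Wilson intervals) that were CpG-rich or held each motif up to 100 bp from the Pax6-ON summit, for the 282 members, 3893 shared promoters and 2865 distal intervals open in Pax6-ON cells only. The AP-1 share of members, 14.2%, lies between 3.42% and 52.8%, and their CpG-rich share, 53.9%, between 88.0% and 1.43%.

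The genes were described with 34 lists, and 65 of the 278 member genes were on at least 1. Of the 52 mesenchymal and epithelial-mesenchymal transition genes, 6 were members, 11.5% against 1.30% of all genes. They were Nt5e, the surface enzyme CD73 (fold enrichment 6.79), the developmental factor Osr2 (3.82), the microfibril gene Fbn1 (2.90), fibronectin Fn1 (2.90, at an interval where the annotation also starts a transcript of Apol7d), the mesenchymal factor Twist1 (2.77) and smooth muscle actin Acta2 (2.31). Of the same 52 genes, 9.62% had a promoter open in Pax6-HIGH cells only (12.5% of all genes) and 5.77% one open in Pax6-OFF cells only (3.24% of all genes). A promoter with any Pax6-ON peak, member or shared, was found at 11 of the 52 and at 4634 of all 21410 genes. Of the 53 epithelial junction and keratin genes, 0 were members, while 7 had a promoter with any Pax6-ON peak.

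Matrix genes made up 9 of 135, 6.67%, and the same share of the list had a promoter open in Pax6-OFF cells only, with 8.89% for Pax6-HIGH. The matricellular proteins Wisp1 and Nov had fold enrichments of 4.68 and 4.61 at chr15:66722485-66723120 and chr15:54576941-54577399. The proteases Adamts5 and Mmp16 had 4.22 and 4.02, the fibrillar collagen Col11a1 3.89 and the elastic fibre protein Fbln5 3.62. Fbn1 carried 2 member intervals, Fn1 1 and Ltbp1, which stores latent TGF-β in the matrix, 1 (3.16). Of the 57 Adam and Adamts genes, 4 were members, with Adamts7 (6.13) the strongest. Of 51 integrin and focal adhesion genes 2 were members, Itgb8 and the collagen receptor Itga2 (2.50). Of 62 actin, myosin and contractile genes 4 were, Synpo (2.90), Nexn (2.83), Acta2 (2.31) and Tagln2 (2.17).

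Signalling genes were members at receptors, ligands and modulators. The TGF-β and BMP list had 4 of 63, 6.35%: the receptor Tgfbr2 (4.41, at chr9:116083862-116084542), Ltbp1, the feedback inhibitor Pmepa1 (2.90) and the BMP-binding protein Bmper (2.70). Of the 63, 4 had a promoter open in Pax6-OFF cells only and 7 one open in Pax6-HIGH cells only. The receptor tyrosine kinase list had 5 of 100, namely the insulin-like growth factor binding protein Igfbp7 (5.34), the ligand Fgf5 (4.81) and the receptors Egfr (3.49), Flt1 (3.03) and Kdr (2.70). The last 2, receptors for VEGF, were also the 2 members of 58 blood, immune and endothelial markers. Of the same 100 genes, 27 had a promoter open in Pax6-HIGH cells only and 9 one open in Pax6-OFF cells only. Notch and Hedgehog signalling had 3 of 42, Hey2, the Hedgehog co-receptor Boc (3.10) and the Hedgehog effector Gli3 (3.10). WNT signalling had 1 of 76, Prickle2 (3.95).

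Guidance genes were 6 of 70, 8.57%. Sema3d had 8.04 at chr5:12383186-12383922, Sema6d 5.31, the secreted repellent Slit2 4.44 at chr5:48374199-48374794, and the ephrin receptor Ephb3 4.35. Ephb6 had 2.50 and Sema5a 2.37. Of these 70 genes, 16 had a promoter open in Pax6-HIGH cells only and 7 one open in Pax6-OFF cells only. Protocadherins and cadherins had 2 of 45, the adhesion proteins Pcdh18 (4.28) and Pcdh7 (2.73). Small GTPases of the cytoskeleton and their regulators had 5 members of 113, 4.42%, with the GTPase Rhoj (3.49) and the exchange factor Vav3 (2.90) the strongest, followed by Arhgap24, Tiam1 and Arhgap42. Neuronal and synaptic genes had 3 of 110, 2.73%, namely Nrxn3 (9.38), Gabra2 (3.62) and Dlg2 (2.50), and 44 had a promoter open in Pax6-HIGH cells only and 3 one open in Pax6-OFF cells only.

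Transcription factors of development outside the eye list were members at 10 of 234, 4.27%. In the same list 38 had a promoter open in Pax6-HIGH cells only and 14 one open in Pax6-OFF cells only. The cardiac factor Tbx20 had a fold enrichment of 6.46 at chr9:24578623-24579142. Six2, a factor of kidney progenitors, had 4.09 at chr17:86087518-86087922 and was the 1 member of 33 kidney genes. Also among the 10, Nfia had 4.04, Pou3f1 3.95, Irx5 3.60, Bnc2 3.16, Zic2 3.03, Hlx 2.97 and Foxm1 2.50. Of 33 lens and eye factors 2 were members, among them Lhx2 (3.43, at chr2:38206492-38206709), a factor of the optic vesicle. More of these 33 genes, 10, had a promoter open in Pax6-HIGH cells only, and 2 had one open in Pax6-OFF cells only. Of 36 gene entries matched by the crystallin and lens fibre list 0 were members, while 4 had a promoter open in Pax6-HIGH cells only and 1 in Pax6-OFF cells only. None of the 40 gene entries matched by the Hox list was a member, while 8 of them had a promoter open in Pax6-OFF cells only.

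**Figure D5:**
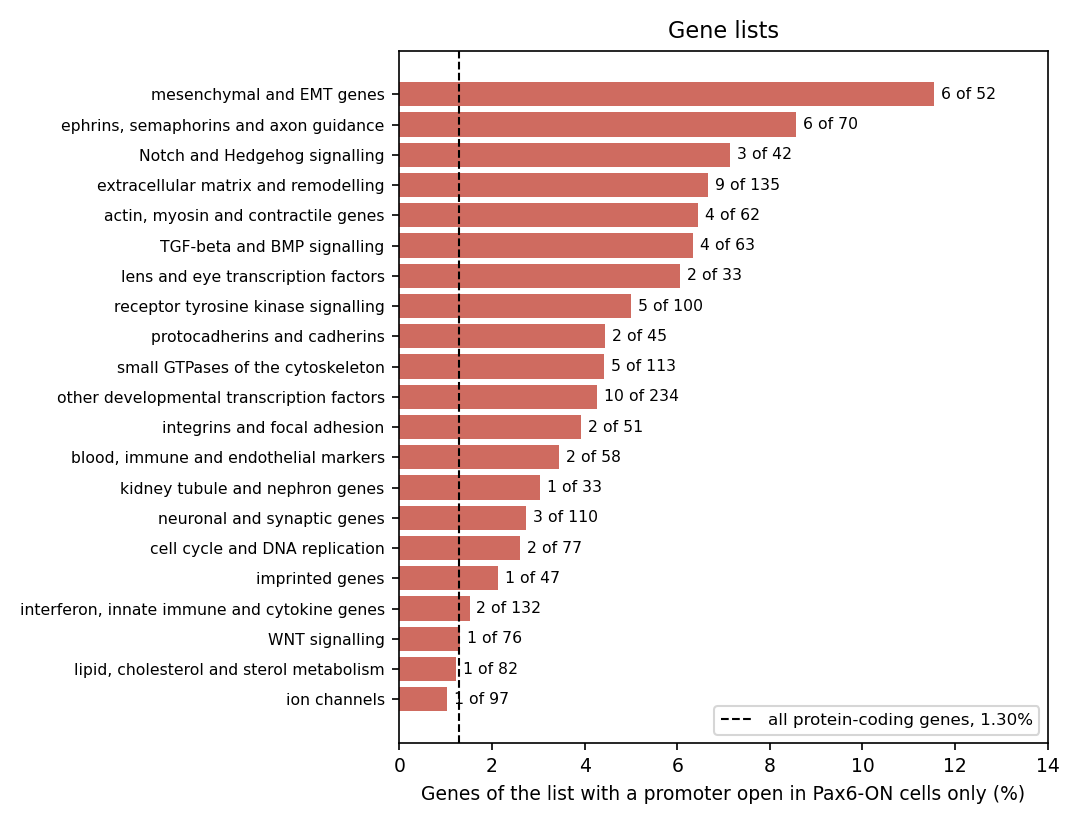
Share of the genes of each list (x axis, %, from 0) with a promoter open in Pax6-ON cells only, with counts beside the bars. The dashed line is the share over all protein-coding genes, 1.30%, and the 13 lists with 0 members are not drawn. The highest share is that of the mesenchymal and epithelial-mesenchymal transition list, 6 of 52.

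The other lists had few members, but they do not hold every gene of their class. Kcna4 was not on the ion channel list, the Ifi200 members were not on the interferon list, and the member Peg12 was not on the imprinted list. Cell cycle and DNA replication had 2 of 77 (Mycl1, 3.76, and Myc, 2.44), interferon, innate immune and cytokine genes 2 of 132 (Il15, 5.21, and Tnfrsf1b, 2.50), imprinted genes 1 of 47 (Gab1, 6.58), lipid and sterol metabolism 1 of 82 (Pla2g4a, 3.82) and ion channels 1 of 97 (P2rx5, 3.69). No member was found among 13 AP-1 factors, 28 Hippo pathway genes, 67 listed germ cell and meiosis genes, 17 pigment cell markers, 28 muscle markers, 28 islet genes, 55 oxidative stress genes, the chromatin regulators, 63 mitochondrial genes or 15 housekeeping controls. The meiotic gene Mei4, a member, was not on the germ cell and meiosis list. Among gene families named by symbol, 3 of 32 TNF receptor genes were members (Tnfrsf23, Tnfrsf1b and Tnfrsf19) and 3 of 94 potassium channel genes (Kcna4, Kcnk10 and Kcnip3). So were 8 of 429 zinc finger genes and 3 of 1433 olfactory and vomeronasal receptor genes, against 1.30% of all genes.

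Other starts of the member genes were searched for calls of other lines. Of the 278 genes, 108 had a single annotated start and so no other start to be called, and the rule itself kept other lines' peaks out of the member. In 233 of 278 genes, 83.8% (79.0 to 87.7%), no annotated protein-coding start had a peak of another line within 1 kb. In 31 of the 170 genes with several starts, 18.2% (13.2 to 24.7%), a different start of the gene did, as at Rab27b, Kcnk10, Lhx2, Prickle2, Synpo, Foxm1 and Myc. The Myc member, with a fold enrichment of 2.44, lay 1241 bp from a Pax6-HIGH peak. In 22 genes, 7.91% (5.28 to 11.7%), the same start was within 1 kb of a peak of another line that did not touch the member. The nearest was at Tada1, where a Pax6-HIGH peak was 20 bp away, and Adamts7, Nfia, Gli3, Tagln2 and Tnfrsf1b were among the 22. Over all members, another line had a peak within 1 kb in 20, within 10 kb in 72 and within 50 kb in 181. The median gap was 37085.5 bp to Pax6-HIGH and 78060.5 bp to Pax6-OFF peaks.

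Of the member genes, 13 had 2 member intervals each. Mctp1, a membrane protein with C2 domains, had 7.15 and 3.95 at separate starts. Slc24a3, an exchanger of sodium and calcium, had intervals on both sides of its start with 5.14 and 4.78. Rprm (4.22 and 2.64), Slitrk5 (4.02 and 3.43), the bicarbonate transporter Slc4a4 (3.89 and 2.90), Mycl1 (3.76 and 2.37), Bnc2 (3.16 and 2.37), Fbn1 (2.90 and 2.11), Acot7 (2.90 and 2.37) and Pcdh7 (2.73 and 2.58) followed. Gm8108 and 4930467E23Rik, gene models of repeated families, were also among the 13.

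Pax6-ON-only distal intervals were counted around the members. At least 1 lay within 50 kb of the summit in 85 members, 30.1% (25.1 to 35.7%), against 8.53% (7.69 to 9.45%) of shared promoters, 5.73% (4.91 to 6.68%) of promoters open in Pax6-HIGH cells only and 4.24% (2.95 to 6.06%) of those open in Pax6-OFF cells only. The other lines' own promoters and distal intervals also lay together, but by a smaller margin over shared promoters. The numbers of such distal intervals differed too, with 14679 for Pax6-HIGH, 2898 for Pax6-OFF and 2865 for Pax6-ON. Distal intervals open in Pax6-HIGH cells only lay near 50.0% (48.1 to 51.9%) of promoters open in that line only, 41.7% (40.2 to 43.3%) of shared promoters and 36.5% (31.1 to 42.3%) of members. Those open in Pax6-OFF cells only lay near 23.9% (20.8 to 27.3%) of promoters open in that line only, 10.4% (9.51 to 11.4%) of shared promoters and 8.87% (6.08 to 12.8%) of members. Without members that had at least 2 others within 500000 bp, 62 of 248 had a Pax6-ON-only distal interval. The highest number, 14, was at Gm13212 on chromosome 4. Promoter and distal calls come from the same pooled library.

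Part of the group lay in repeated families. The 75 bp at the summit occurred more than once in the genome in 17 members, 6.03%, against 1.62% of shared promoters, so their reads cannot be placed with certainty. Of the 21 members on chromosome 14, 9 were of this kind, among them Gm3667, Gm3715, Gm3115 and Gm8206. On chromosome 8, 4930467E23Rik and Gm15319 had between 86 and 103 fragments but fold enrichments of only 1.67 to 1.74, the lowest of all members, over a high local background. Chromosome 4 held 37 members, 13.1% (9.67 to 17.6%), against 8.37% of shared promoters, 14.6% of the distal intervals open in Pax6-ON cells only and 6.33% of protein-coding genes. The Ifi200 members lay within chr1:175872570-175962360, where Ifi202b had 90 fragments at its summit, and their summit sequences were each found once. They belong to a family of similar genes, so the assignment of their reads remains uncertain.

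The number of members depended on how a shared call was defined. With the same number of peaks in each line, the 9821 of smallest q-value, 531 intervals qualified, and with a shared call requiring 50% overlap of both peaks 1039 did. Requiring the start inside the interval left 171, and counting only known transcripts of annotation level 1 or 2 left 155.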

How the data were processed

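The deposited values are 1 MACS2 peak table per line. Per the labels and headers, the authors trimmed reads with Trim Galore 0.4.1, aligned them to mm9 with Bowtie2 2.2.6, used SAMtools 1.6 and bedtools, and pooled both replicates in 1 MACS2 2.1.1 call at q 0.05, without a control or a Tn5 shift, which can widen peaks. The deposited pileup is a signal, the fragments at the summit. The authors' fold enrichment is a ratio to local background, and their p-values and q-values are −log10 values. A second deposited format of the same peaks was not used. The headers name alignments that had passed through Picard's duplicate step and a call that kept all duplicates present. Whether that step marked or removed them is not given in the sources used here, so the pileups may count duplicate fragments.

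Peaks were merged with pandas 2.3.3 in Python 3.11.15, and sequence was read from NCBIM37 with pysam 0.24.0. Starts were those of protein-coding transcripts in GENCODE M1. Of 2310 list entries, 2247 matched a gene, older symbols through RefSeq (GRCm38) synonyms. The Hox list of 39 entries matched 40 annotated genes, the crystallin list of 35 matched 36 and the mesenchymal list of 51 matched 52. Wilson intervals (95%) used SciPy 1.17.1 and cover counting error only. The scripts were tested on simulated data. With replicates pooled, no test between lines was possible. The members and lists were chosen with earlier results of these data known. No sequence of chromosome 18 was printed, and the values of a few genes that the naming rule covers are not reported here. Named were the 25 members of highest fold enrichment, up to 10 member genes of each list, genes with 2 or more intervals, the intervals nearest the distance limit, and the markers. Alternatives covered q-value cuts, peak numbers, distances, overlap, annotation, chromosomes and windows. Genes named for their gaps, AP-1 match, families or absence from a list were chosen after their values were seen. So were the splits of the other promoter groups by composition and start.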

Additional observations from a re-analysis of the deposited data

How the results depend on the processing

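Of 82 values computed over 7 results and 16 alternatives, 57 stayed within 1.5 times the count or inside the interval of the value reported, among them those for q-value cuts of 0.01 and 0.001, an added margin of 1 kb to other lines' peaks, chromosomes X and Y, and a start within 1 kb of the summit. With equal peak numbers there were 531 intervals at 532 genes, 13.1% of Pax6-ON-only intervals lay at a promoter, 63.7% of members were CpG-rich and 7.89% of genes had another promoter open elsewhere. With 50% overlap of both peaks these became 1039, 1124, 23.6% and 79.2%, with AP-1 letters in 6.45%. A limit of 500 bp gave 7.66% at a promoter and 60.2% CpG-rich. With the start inside the interval there were 171 intervals at 173 genes, 5.43% at a promoter, a median fold enrichment of 3.76, 66.1% CpG-rich, 9.94% with AP-1 letters and 7.51% with another open promoter. Known transcripts gave 155 intervals, 148 genes and 4.93% at a promoter. A stricter CpG criterion (55% G and C, ratio 0.75) gave 31.6%, and AP-1 windows of 50 and 250 bp on either side gave 8.51% and 20.6%. The cause of each shift was not tested, except that stricter rules by construction leave fewer intervals. Leaving out the 17 members with repeated summit sequence, an alternative chosen after seeing the data, left 265 intervals and moved no share outside its interval. No paired analysis was possible because both replicates of a line were pooled in 1 call, and for the same reason no replicate could be left out. Pooling and depth limit the data to presence or absence of a call.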

Other observations

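Some groups of related genes among the members were noticed after their values were seen, and their counts are descriptions without a test. They were picked because they held members, so high shares follow from the choice. The share over all protein-coding genes was 1.30%, and promoters open in 1 other line only were not counted for these groups. Genes that build or carry heparan and chondroitin sulfate chains made up 6 of 49 such genes, 12.2%. They were Chsy3 (fold enrichment 7.78), the heparan 3-O-sulfotransferases Hs3st5 (6.98) and Hs3st3b1 (5.67), the cell surface proteoglycan Gpc5 (6.79), the sulfotransferase Chst2 (6.77) and Ndst3 (2.83). Of 9 adrenergic receptor genes 3 were members, Adra1d (3.16), Adra2a (3.10) and Adra1b (2.83), and both cGMP-dependent kinase genes were, Prkg1 (3.95) and Prkg2 (3.56). Leucine-rich repeat adhesion genes of neurons had 3 of 28, with Lrrc4c (7.31), Flrt2 (4.41) and Slitrk5 (4.02).

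Clustered immune and placental families were also present and were picked in the same way, beside a share of 1.30% over all genes. Of 8 Ifi200 genes 4 were members, and 4 of 18 Ly49 and Clr lectin-like genes were, with Clec2i (6.06) and Klra2 (5.80) the strongest, followed by Clec2h (3.56) and Klra1 (2.97). Of 4 Prl2c genes, which encode prolactin-like hormones, 2 were members, Prl2c3 (4.48) and Prl2c2 (2.64). AP-1 letters were found in 6 of the 9 member intervals of these families, at the Ifi203, Klra2, Clec2i, Clec2h, Prl2c3 and Prl2c2 summits, and not at Ifi205, Ifi202b or Klra1. None of the 9 was CpG-rich, and of all members that were not, 34 of 130, 26.2%, held the letters. Genes in these families resemble each other, so their matches are not independent and reads may be placed at the wrong copy. Strain also differed between Pax6-ON and Pax6-OFF cells, and its part in these calls was not tested.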
